A study of Mus musculus with 12 samples.

Results

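Glutathione S-transferases were followed in mouse liver as a set of 10 genes, out of 18193 genes measured: the alpha class genes Gsta2, Gsta3 and Gsta4, the mu class genes Gstm1, Gstm2, Gstm3, Gstm4 and Gstm6, the theta class gene Gstt1 and the kappa class gene Gstk1. Of the array's 45101 probe sets, which are groups of short probes for 1 transcript, 15 were annotated to exactly 1 of these genes, and each gene was read from that probe set of its own that was brightest on average over the 12 arrays. All 10 genes had such a probe set, and no filter on low values was applied. RNA from liver of C57Bl/6 mice aged 3 months was hybridised to Affymetrix GeneChip mouse arrays in 3 groups of 4: wild type without treatment, Atp7b-/- without treatment, and Atp7b-/- given zinc, so that both mutant groups carry the same genotype. The sources used here do not give the zinc dose or duration, the sex of the animals, how Atp7b was inactivated, or whether each array stands for its own animal. The p-values below set group differences only against the variation between arrays of the same group, and some of that variation may be technical.

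Glutathione S-transferases join the tripeptide glutathione to reactive, electron-poor molecules, which makes these more soluble and ready for export from the cell. Hepatocytes hold large amounts of the alpha and mu classes, and several of these genes are known targets of the transcription factor NRF2, encoded by Nfe2l2, which responds to oxidants and electrophiles, and of the drug-sensing nuclear receptors CAR and PXR. Atp7b encodes a pump that moves copper from hepatocytes to the bile and onto secreted copper proteins.

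Values are log2 intensities, so a difference of 1 is a doubling of the signal, and they ran from 2.22 to 15.2 over the whole table. Atp7b itself was 8.60 ± 0.073 (SD, n = 4) in wild type, 7.11 ± 0.15 in Atp7b-/- and 6.83 ± 0.18 in zinc-treated Atp7b-/- liver, lower in both mutant groups (limma adjusted p = 2.04e-07 and 1.22e-07); the differences of -1.49 and -1.77 were -0.90 and -0.96 with its probe sets averaged. Of 7 hepatocyte markers none was called in Atp7b-/- against wild type, and their mean level lay between 13.7 and 14.2 on every array; with zinc against untreated mutants 1 of the 7, Tat, fell by 0.72 (adjusted p = 0.0339). Of 7 Kupffer cell and macrophage markers 5 fell in Atp7b-/- liver, with a mean level of 8.12 to 9.06 on the wild type arrays and 7.64 to 8.73 on the untreated mutant arrays. Of 6 endothelial markers 3 fell, from 7.64 to 7.77 in wild type to 7.23 to 7.39. The 3′ minus 5′ signal of the array's control transcripts, which rises as RNA is broken down, was 0.617 to 0.784 in wild type, 0.792 to 0.881 in Atp7b-/- and 0.541 to 0.739 in zinc-treated liver. These measures moved with the groups, and their part in the results below was not tested. Pancreatic acinar transcripts were present on zinc-treated arrays 2 and 3, where 11 markers had a mean level of 9.61 and 6.93, against 5.52 to 5.90 on the other arrays. Untreated Atp7b-/- array 1 correlated least with its group. In bulk liver RNA, fewer cells of a type and less RNA per cell cannot be told apart.

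Loss of Atp7b was accompanied by higher levels of 4 of the 10 genes: Gsta2, Gstm3, Gstm4 and Gstk1 rose in Atp7b-/- against wild type liver, and none fell. A gene was called at a Benjamini-Hochberg adjusted p under 0.05 over all genes in limma, and 24.6% of all genes were called by that rule in this comparison, 14.3% of all genes in the upward direction. Gsta2, Gstm3 and Gstm4 more than doubled, whereas Gstk1 rose by 0.25 on the log2 scale. The other 6 genes did not pass the test. The median change of the 10 genes was 0.25, against -0.05 over all genes, and 8 of the 10 values were positive. Both groups stood apart without overlap for these 4 genes, as did 26.4% of all genes, and 14.3% of all genes stood apart upward.

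**Figure D1:**
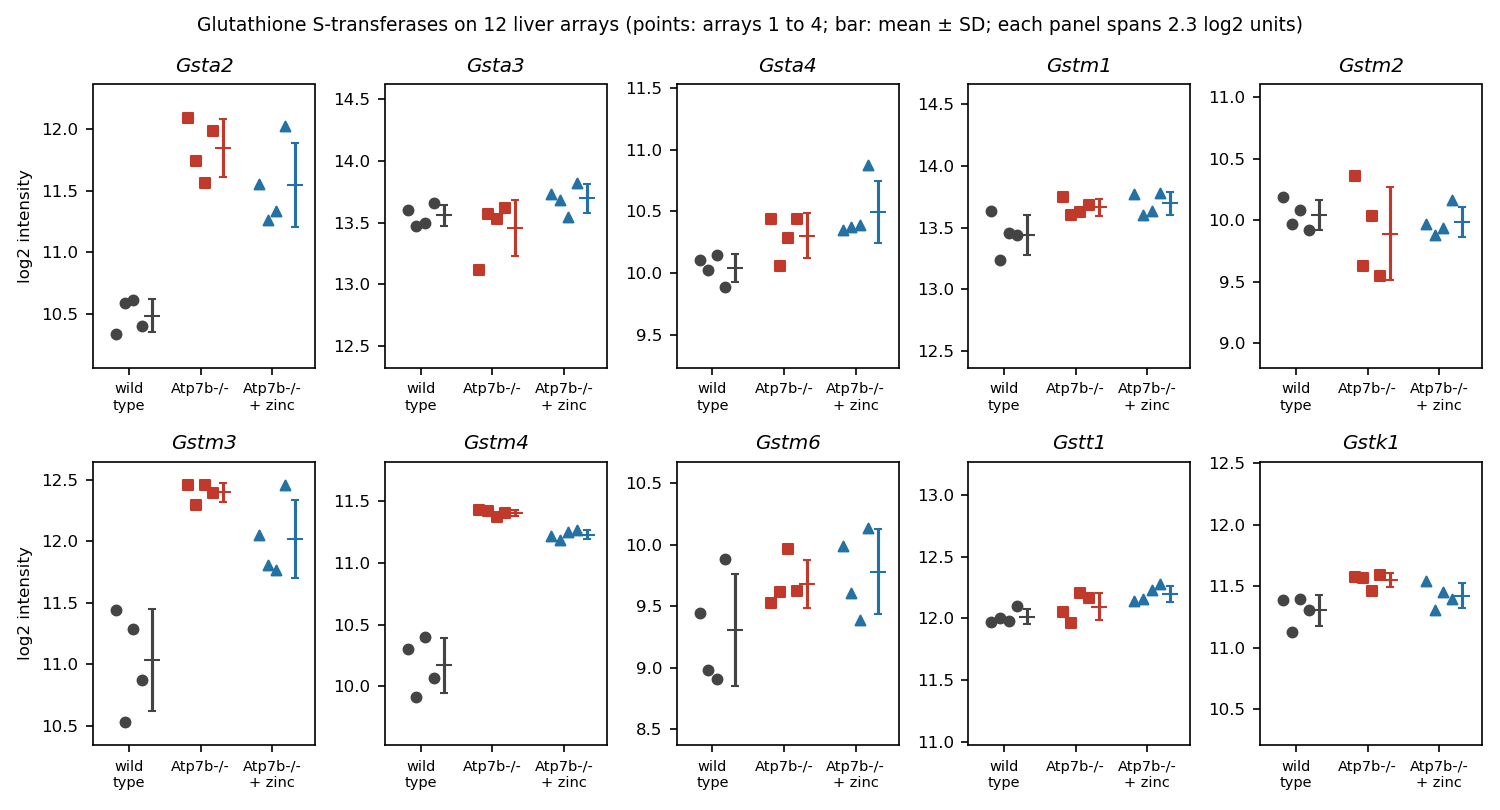
Log2 intensity of each of the 10 glutathione S-transferases on all 12 arrays, with points for arrays and a bar for mean ± SD (n = 4) per group. For Gsta2, Gstm3 and Gstm4 every array of both mutant groups lies above every wild type array, while the groups overlap for Gsta3, Gstm1, Gstm2 and Gstm6.

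Among the alpha class, Gsta2, an inducible transferase that also reduces organic peroxides (probe set 1421040_a_at, gene 14858, chromosome 9), read 10.34, 10.59, 10.61 and 10.40 in wild type. It read 12.09, 11.74, 11.56 and 11.98 in Atp7b-/- and 11.56, 11.26, 11.34 and 12.03 in zinc-treated Atp7b-/- liver. All 8 mutant arrays lay above the 4 wild type arrays, and the mutant groups overlapped. The rise in Atp7b-/- was 1.36 ± 0.16 (SE; 2.57-fold, 95% interval 2.03 to 3.25; limma adjusted p = 3.52e-05). Gsta3, which in mice detoxifies the epoxide of aflatoxin (1423436_at, gene 14859, chromosome 1), read 13.61, 13.47, 13.50 and 13.66 in wild type, 13.12, 13.57, 13.53 and 13.62 in Atp7b-/- and 13.73, 13.69, 13.54 and 13.82 with zinc. The lowest of these was Atp7b-/- array 1, and the groups overlapped; the difference from wild type was -0.10 ± 0.11 (adjusted p = 0.509), and 0.011 without that array. The second Gsta3 probe set, 1423437_at, differed by 0.14 in the same comparison and was not called either.

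Gsta4, which conjugates the lipid peroxidation product hydroxynonenal (1416368_at, gene 14860, chromosome 9), read 10.11, 10.03, 10.15 and 9.88 in wild type, 10.44, 10.05, 10.28 and 10.44 in Atp7b-/- and 10.35, 10.38, 10.39 and 10.88 with zinc. Untreated mutant array 2 lay within the wild type range, and all zinc-treated arrays lay above it. The difference between Atp7b-/- and wild type was 0.26 ± 0.13 (SE; 95% interval -0.0078 to 0.53; adjusted p = 0.142).

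In the mu class, Gstm3 (1427474_s_at, gene 14864) read 11.45, 10.53, 11.29 and 10.87 in wild type, 12.45, 12.29, 12.46 and 12.39 in Atp7b-/- and 12.05, 11.81, 11.76 and 12.46 with zinc. The wild type arrays were the most spread, and both mutant groups lay above all of them. Gstm3 rose by 1.36 ± 0.19 in Atp7b-/- liver (2.58-fold, 95% interval 1.95 to 3.40; limma adjusted p = 0.000146). Its probe set can also match related transcripts, as the suffix _s_at marks; the other Gstm3 probe set, 1427473_at, rose by 1.55 ± 0.23 (adjusted p = 0.000361 over all probe sets).

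Gstm4 (1424835_at, gene 14865) read 10.30, 9.91, 10.40 and 10.07 in wild type, 11.43, 11.42, 11.38 and 11.41 in Atp7b-/- and 11.22, 11.18, 11.25 and 11.27 with zinc. The 3 groups did not overlap, and the arrays of each mutant group lay close together (SD 0.024 and 0.036, against 0.22 in wild type). Gstm4 rose by 1.24 ± 0.094 in Atp7b-/- liver (2.36-fold, 95% interval 2.05 to 2.72; limma adjusted p = 6.83e-07), the smallest adjusted p among the 10 genes.

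Gstm1, the main constitutive mu class enzyme of mouse liver (1416416_x_at, gene 14862), read 13.64, 13.24, 13.46 and 13.44 in wild type, 13.75, 13.60, 13.63 and 13.69 in Atp7b-/- and 13.77, 13.60, 13.63 and 13.78 with zinc. Only wild type array 1 reached into the mutant ranges. The difference in Atp7b-/- was 0.22 ± 0.088 (95% interval 0.034 to 0.41; adjusted p = 0.079). Its 4 probe sets gave 0.22 to 0.24, and none was called. The probe set used and 1425627_x_at can also match related transcripts, as the suffix _x_at marks. The other Gstm1 probe sets, 1425626_at and 1448330_at, gave 0.22 and 0.24. Without wild type array 1 the difference was 0.29 with an adjusted p of 0.0312, and the call was also made under 4 of the other alternatives.

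Gstm2 (1416411_at, gene 14863) read 10.19, 9.97, 10.09 and 9.92 in wild type, 10.36, 9.63, 10.03 and 9.55 in Atp7b-/- and 9.97, 9.88, 9.93 and 10.16 with zinc, with overlap of all groups and a difference of -0.15 ± 0.15 in Atp7b-/- (adjusted p = 0.483). Gstm6 (1422072_a_at, gene 14867) read 9.45, 8.99, 8.91 and 9.88 in wild type, 9.52, 9.61, 9.97 and 9.62 in Atp7b-/- and 9.99, 9.61, 9.39 and 10.14 with zinc. Wild type array 4 lay within the range of the untreated mutant arrays, and the difference of 0.38 ± 0.21 was not called (adjusted p = 0.205). Without that array it was 0.57, with an adjusted p of 0.0416.

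Gstt1, a theta class enzyme that conjugates small halogenated alkanes (1418186_at, gene 14871, chromosome 10), read 11.97, 11.9995, 11.98 and 12.10 in wild type, 12.05, 11.97, 12.21 and 12.16 in Atp7b-/- and 12.14, 12.16, 12.23 and 12.28 with zinc. The untreated groups overlapped, with a difference of 0.084 ± 0.074 (adjusted p = 0.425), and all zinc-treated arrays lay above wild type. Gstk1, the kappa class enzyme of mitochondria and peroxisomes (1452823_at, gene 76263, chromosome 6), read 11.39, 11.13, 11.40 and 11.30 in wild type, 11.57, 11.57, 11.46 and 11.59 in Atp7b-/- and 11.54, 11.30, 11.45 and 11.39 with zinc. All untreated mutant arrays lay above wild type, and the zinc-treated arrays reached into both ranges. The rise in Atp7b-/- was 0.25 ± 0.081 (1.19-fold, 95% interval 1.05 to 1.34; limma adjusted p = 0.0401). This call was lost under 9 of 24 alternatives, among them leaving out wild type array 2 or 4, untreated mutant array 1, 2 or 4, or zinc-treated array 4 (adjusted p 0.0158 to 0.245 over all 24).

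**Figure D2:**
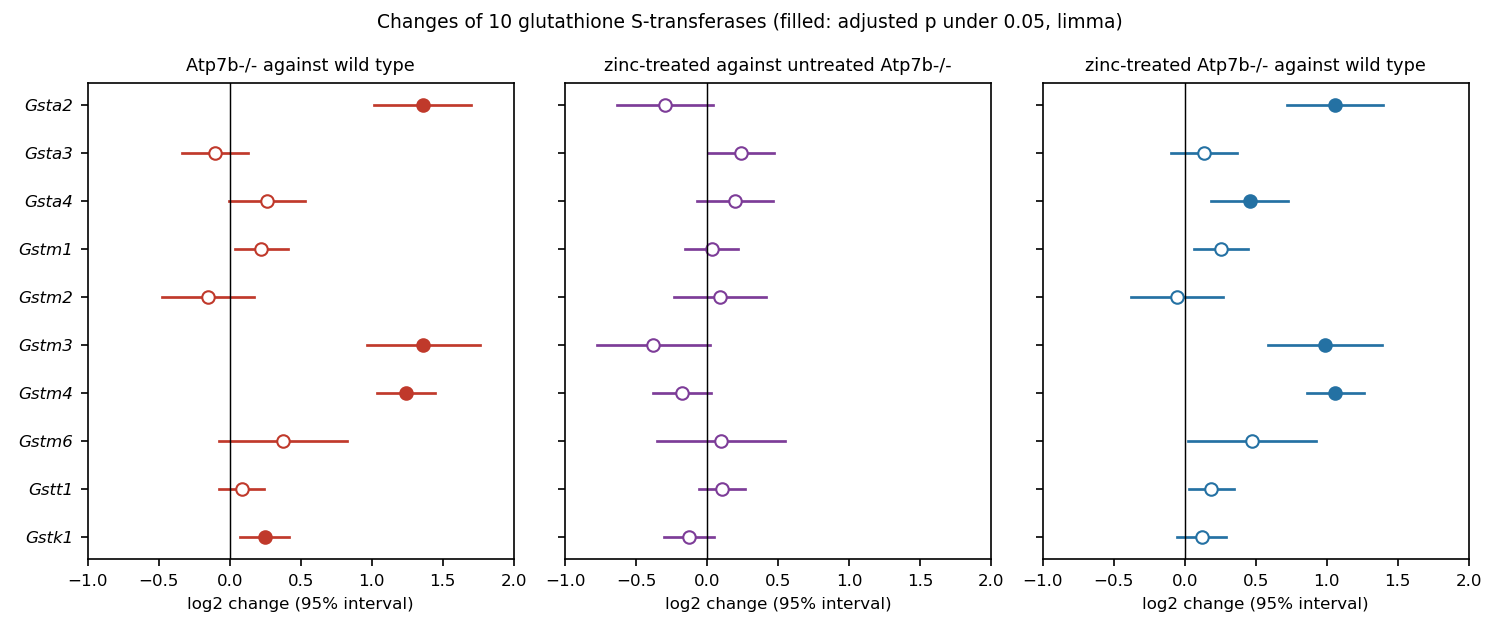
Log2 change of the 10 genes with its 95% interval in the 3 comparisons, with filled points for an adjusted p under 0.05 in limma. Gsta2, Gstm3 and Gstm4 lie near or above 1 in both comparisons with wild type, and no point is filled between the mutant groups.

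Sequences before the starts of Gsta2, Gstm3 and Gstm4 are shown because these genes rose together, beside Gsta3, whose level was not called different. Gstk1 also rose, and Gstm1, Gstm2, Gstm6 and Gstt1 were not called either. Their windows were searched but are not printed. The printed windows are therefore not a comparison of called with uncalled genes. RefSeq windows of build GRCm38.p6, from 250 bases before to 50 after the gene start, matched 9 of the 10 genes (13 windows; Gsta4 had none). Each line gives the 250 bases upstream, 5′ to 3′ on the gene's strand, with capitals for the motif matches that lie there. The coordinates are chr9:78347146-78347395 (minus strand) for Gsta2, chr3:107969175-107969424 (minus) for Gstm3, chr3:108044860-108045109 (minus) for Gstm4 and chr1:21240335-21240584 (plus) for Gsta3.
Gsta2: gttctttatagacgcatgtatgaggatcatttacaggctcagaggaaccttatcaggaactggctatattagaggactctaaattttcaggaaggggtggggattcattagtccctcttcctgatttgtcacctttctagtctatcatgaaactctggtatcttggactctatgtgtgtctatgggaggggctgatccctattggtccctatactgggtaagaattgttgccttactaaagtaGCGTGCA
Gstm3: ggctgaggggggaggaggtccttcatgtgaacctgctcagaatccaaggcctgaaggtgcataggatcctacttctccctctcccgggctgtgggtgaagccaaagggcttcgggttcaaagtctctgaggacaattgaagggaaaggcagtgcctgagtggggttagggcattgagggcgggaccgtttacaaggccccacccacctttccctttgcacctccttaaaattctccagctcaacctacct
Gstm4: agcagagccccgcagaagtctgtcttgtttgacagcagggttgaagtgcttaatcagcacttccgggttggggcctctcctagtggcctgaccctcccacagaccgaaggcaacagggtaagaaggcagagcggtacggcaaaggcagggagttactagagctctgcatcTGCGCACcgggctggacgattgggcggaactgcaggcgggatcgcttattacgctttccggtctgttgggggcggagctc
Gsta3: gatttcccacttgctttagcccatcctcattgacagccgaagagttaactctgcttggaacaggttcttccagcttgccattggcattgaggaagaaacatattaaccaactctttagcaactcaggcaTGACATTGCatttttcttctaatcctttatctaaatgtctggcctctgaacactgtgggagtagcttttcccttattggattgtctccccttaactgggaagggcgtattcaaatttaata
The core of the antioxidant response element, searched as TGACNNNGC on both strands, was found in 1 of the 13 windows, in Gsta3 starting at -121, and in 12.4% of all 32851 windows of the same length. The xenobiotic response element core, GCGTG, was found in 3 windows of Gsta2 and Gstm1, against 32.4% of all windows. The metal response element core, TGCACNC or TGCGCNC, was found in 7 windows of 5 genes, against 25.7% of all windows; in Gsta2 it overlaps the GCGTG match at -7, and in Gstm4 it starts at -80. Both Gstm1 windows overlap and hold the same GCGTG site and the same metal response element site. Both Gstm4 windows also overlap and hold the same TGCGCAC site. The window counts therefore include single sites more than once, so their share is not comparable with that of all windows. The Gstm3 window held none of the 3. A match describes these letters in this window and not a bound site. Bases farther upstream than 250 were not searched. A window without a match therefore does not show that the gene lacks the element, and regulation by NRF2 was not tested.

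The 7 mu class genes lie together on chromosome 3, with pseudogenes among them, in the RefSeq order Gstm5, Gstm7, Gstm6, Gstm3, Gstm2, Gstm1 and Gstm4. In Atp7b-/- against wild type their changes in that order were 0.65, 0.88, 0.38, 1.36, -0.15, 0.22 and 1.24. Genes that rose and genes that were not called were thus interspersed along the cluster: Gstm2 and Gstm1 lie between Gstm3 and Gstm4. Gstm7 is the least settled of those that rose, with 0.32 when its probe sets were averaged. On chromosome 10, Gstt1 lies with Gstt3 (0.076) and Gstt4 (0.077), which were not called, and Gstt2, which rose by 0.47 (adjusted p = 0.0473), was named after its value was seen and was not run under the alternatives.

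**Figure D3:**
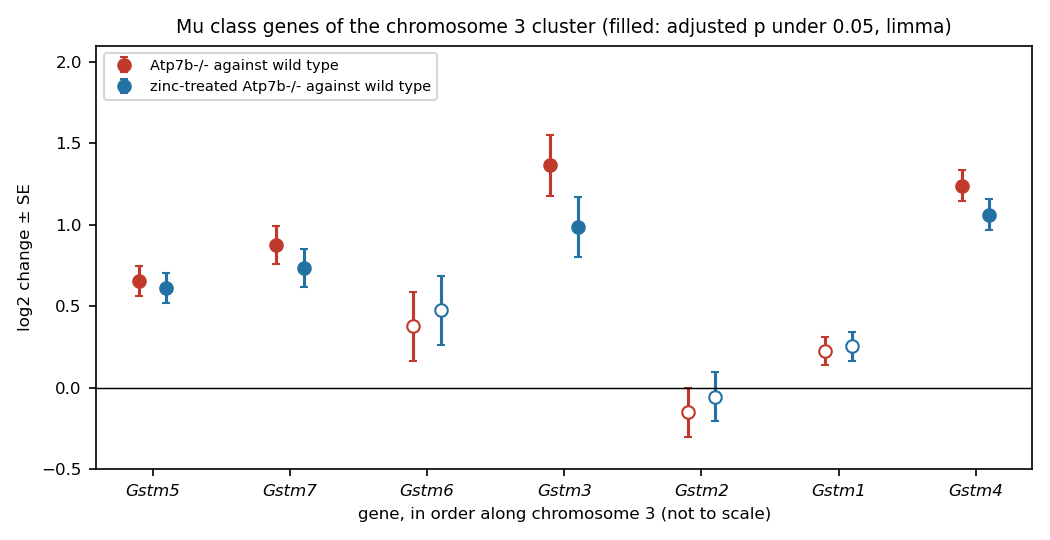
Log2 change ± SE of the mu class genes in their order along chromosome 3 (not to scale), for both mutant groups against wild type, with filled points for an adjusted p under 0.05. Gstm5, Gstm7, Gstm3 and Gstm4 are filled in both comparisons, and Gstm6, Gstm2 and Gstm1 in neither.

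With zinc, none of the 10 genes was called against untreated Atp7b-/- liver in limma, where 6.54% of all genes were called. Of the 10 genes 1, Gsta3, had an unadjusted p under 0.05 in limma, as had 21.9% of all genes, and the count of called members was 0 under all 24 alternatives. Gsta3 was higher by 0.24 (95% interval 0.0078 to 0.47; adjusted p = 0.213), and by 0.13 without untreated mutant array 1, the lowest of its group. Gsta2 differed by -0.30 (-0.64 to 0.041), Gstm3 by -0.38 (-0.78 to 0.022) and Gstm4 by -0.18 (-0.38 to 0.025). Without both zinc-treated arrays that carried pancreatic transcripts these differences were -0.053, -0.14 and -0.16, and without zinc-treated array 4 Gsta2 differed by -0.46. All zinc-treated Gstm4 arrays lay below all untreated ones, the only such gene of the 10; 15.3% of all genes had groups that did not overlap, 9.39% of all genes with zinc lower. The intervals include no difference for Gsta2, Gstm3 and Gstm4, and their width comes from the spread within all 3 groups. For Gstm4 the SD was 0.22 in wild type, 0.024 in untreated and 0.036 in zinc-treated Atp7b-/- liver.

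Zinc-treated Atp7b-/- liver kept higher levels than wild type for Gsta2 (1.06 ± 0.16 SE, 2.09-fold, limma adjusted p = 0.000905), Gstm3 (0.99 ± 0.19, 1.98-fold, adjusted p = 0.00496) and Gstm4 (1.06 ± 0.094, 2.09-fold, adjusted p = 8.51e-06). Gsta4 was higher by 0.46 ± 0.13 (1.37-fold, adjusted p = 0.0412). These were 4 of the 10 genes, all higher, where 7.62% of all genes were called and 4.89% called higher, and the median change was 0.36 against -0.02 over all genes. The arrays did not overlap for 5 genes, the 4 called and Gstt1 (0.19, adjusted p = 0.154), against 14.3% of all genes in either direction and 7.88% upward. Both comparisons with wild type use the same 4 wild type arrays, so their shared calls are not independent. The call for Gsta4 was lost under 13 of 24 alternatives, among them leaving out any wild type array, untreated mutant array 3 or 4, or zinc-treated array 2, 3 or 4 (0.33 without the last). Its adjusted p ran from 0.0278 to 0.0939 over the 24. Leaving out both arrays with pancreatic transcripts left 3 of the 10 called, with Gsta4 at 0.57 (limma adjusted p = 0.0694). Under that setting 699 of all 18193 genes were called, 523 of them higher.

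Zinc-treated arrays 2 and 3, which carried the pancreatic transcripts, both lay below arrays 1 and 4 in 6 of the 10 genes (Gsta2, Gsta3, Gstm1, Gstm2, Gstm3 and Gstm6), against 21.1% of all genes. Without both arrays Gsta2 and Gstm3 remained called against wild type, while their differences from untreated mutants shrank as given above. Over all 12 arrays, after centring each gene on its mean, Gstm3 and Gstm4 were close to each other (root mean square difference 0.207), as were Gsta2 and Gstm4 (0.242). Outside the family, Galns, a lysosomal sulfatase, Exosc8, a subunit of the RNA exosome, and Micu2, of the mitochondrial calcium uptake complex, lay nearest to Gstm4 (0.129, 0.129 and 0.131, where Gstm4 itself varies by 0.559 around its mean). Clybl, D830025C05Rik and Klhl5 lay nearest to Gsta3 (0.0736, 0.0764 and 0.078, against 0.167 for Gsta3 itself).

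Another probe set for alpha class transcripts, 1421041_s_at, is listed with Gm3776, Gsta2 and Gsta1 and cannot be assigned to 1 of them; it lies outside the rule and was chosen after its values were seen. It read 9.13, 9.59, 9.62 and 9.33 in wild type, 12.71, 12.27, 12.38 and 12.64 in Atp7b-/- and 11.25, 11.07, 11.16 and 11.63 with zinc. The 3 groups did not overlap. The signal rose by 3.08 in Atp7b-/- (limma adjusted p = 5.7e-09 over all probe sets), fell by 1.22 with zinc (adjusted p = 0.000354), and with zinc stayed 1.86 above wild type (adjusted p = 2.74e-06). It was called in all 3 comparisons under each of 16 alternatives added after its values were seen. Since the choice followed the values, these p-values and calls are a description and not an independent test. Its rise exceeded that of the probe set for Gsta2 alone by 1.73, and with zinc the difference between both probe sets changed by -0.92. These differences are a description given without a p-value, since the probe set was chosen for its values.

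**Figure D4:**
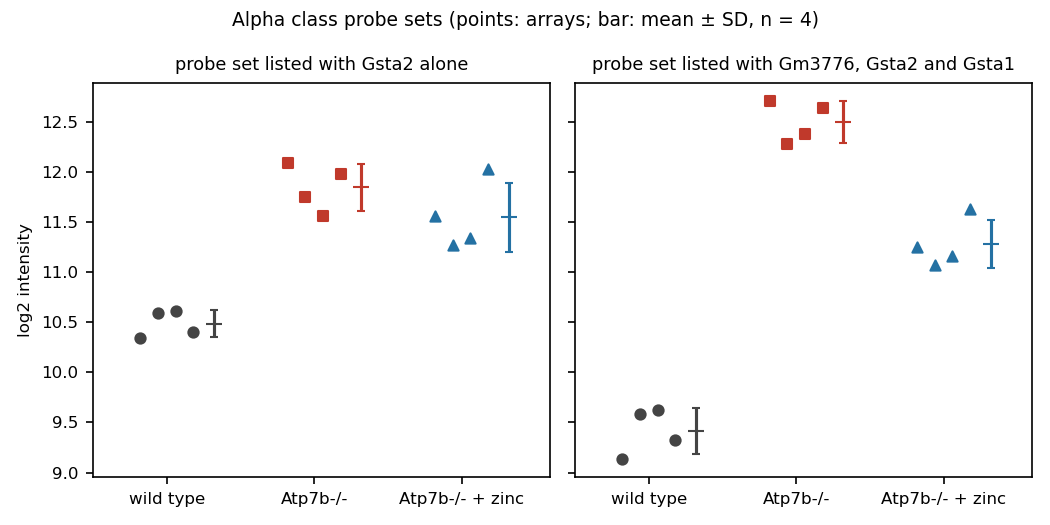
Log2 intensity on each array of the probe set for Gsta2 alone and of the one listed with Gm3776, Gsta2 and Gsta1, with mean ± SD (n = 4) per group. The zinc-treated arrays overlap the untreated mutant arrays for Gsta2 alone and lie between the other groups for the several-gene probe set.

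Of 16 other glutathione transferases measured, 8 rose in Atp7b-/- against wild type and none fell, where 24.6% of all genes were called and 14.3% rose. Gstp3, a pi class gene, rose by 3.25 (limma adjusted p = 9.03e-08), fell by 2.07 with zinc against untreated mutants (7.11e-05) and stayed 1.18 above wild type with zinc, or 0.77 without both pancreatic arrays. Gstcd, which carries a transferase-like domain, rose by 1.15. Gsto1, an omega class enzyme, fell by 0.69 with zinc (limma adjusted p = 0.00963). That call was lost without both pancreatic arrays and also with the Gsto1 probe set of largest variance. Gsto1 rose by 0.82 in untreated mutants. Gstp1 and Mgst1 were not called: their differences in Atp7b-/- were 0.10 and 0.060. Mgst2, Mgst3 and Gstt2, which also rose, were named after their values were seen. Mgst2 read 8.88 on untreated mutant array 1 and 5.93, 5.28 and 6.42 on the other untreated mutant arrays, against 4.65 to 4.79 in wild type. Without untreated mutant array 1, 7 of the 16 rose, where 2481 of all 18193 genes were called higher. Gsta1 had no probe set of its own.

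Genes that make glutathione went both ways: of 8, 3 rose and 2 fell in Atp7b-/- liver, against 24.6% of all genes called. Slc7a11, the cystine carrier of the glutamate exchanger, fell by 0.25 at a dim level (3.64 against 3.89, below the lower quartile of every array, 4.77 to 4.93), a call lost without untreated mutant array 3 and under 3 other alternatives. Cth, which yields cysteine, rose by 0.80 and fell by 0.59 with zinc. Slc3a1, a subunit of a cystine transporter, rose by 1.01, and Gss, glutathione synthetase, by 0.50, a call lost without wild type array 1 or 3, untreated mutant array 1 or 4, or after quantile normalization, and 0.80 in its probe set of largest variance. Gclc, the catalytic subunit of the rate-limiting ligase, fell by 0.44 (adjusted p = 0.0323) and rose by 0.60 with zinc (0.0215); the fall was lost under 8 alternatives, among them leaving out wild type array 2 or 4 (-0.29 without the latter) or untreated mutant array 1, 2 or 4, and the rise without untreated or zinc-treated array 1 or 4. Gclm, its modifier subunit, differed by 0.10 (adjusted p = 0.487).

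Of 12 genes of glutathione reduction and peroxide removal, 5 rose in Atp7b-/- and none fell (24.6% of all genes called, 14.3% called higher). With zinc against untreated mutants 3 fell, where 6.54% of all genes were called and 26.0% of those were higher. Srxn1, sulfiredoxin, rose by 1.35 (0.77 with its probe sets averaged) and fell by 0.50 with zinc, the latter lost under 7 alternatives, among them leaving out untreated array 4 or zinc-treated array 1, 2 or 4. Pgd, an NADPH source of the pentose phosphate pathway, rose by 1.14 and fell by 0.79. Txnrd1, thioredoxin reductase, rose by 0.64, but the mean of all its probe sets gave 0.061, and its change with zinc, -0.36, became 0.098 there and lost its call under 13 other alternatives, among them leaving out wild type array 3 or any mutant array. Gsr, glutathione reductase, rose by 0.28 (adjusted p = 0.0209), which was lost without wild type array 1, without untreated mutant array 4 and after quantile normalization.

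Of 12 genes of conjugate export and breakdown, 3 rose and 1 fell in Atp7b-/-, against 24.6% of all genes called. The fall was that of Abcc3, an efflux pump of the sinusoidal membrane (-0.45), lost under 9 alternatives, among them leaving out any wild type array or untreated mutant array 1, 2 or 3. Chac2, a glutathione-degrading enzyme, rose by 0.48, lost under 6 alternatives, among them leaving out wild type array 1 or 3 or untreated mutant array 2, 3 or 4. Abcc2, the canalicular pump for glutathione conjugates, rose by 0.65 and fell by 0.84 with zinc, and without both pancreatic arrays the latter had an adjusted p of 0.0504. Ggct, which breaks down gamma-glutamyl dipeptides, rose by 0.48, but the mean of its probe sets gave -0.0071. Of 13 sensors and regulators, 3 rose and 2 fell in Atp7b-/-, against 24.6% of all genes called. Nfe2l2 rose by 0.70 (adjusted p = 0.00308) and fell by 0.63 with zinc (0.0193), the latter lost without untreated array 2, 3 or 4, zinc-treated array 4, or both pancreatic arrays, and -0.998 in its probe set of largest variance. Keap1, which holds NRF2 back, rose by 0.26, a call lost without wild type array 1 or untreated mutant array 4 and under 2 other alternatives (0.17 after quantile normalization). Nr1i2, encoding PXR, rose by 0.40, and Nr1i3, encoding CAR, differed by -0.21 (adjusted p = 0.334). The genes that fell were Rxra and Hnf4a. Rxra changed by -0.59 (limma adjusted p = 0.00427), a call kept under all 24 alternatives. Hnf4a changed by -0.25 (limma adjusted p = 0.0233). Hnf4a was named after its value was seen and was not run under the alternatives.

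Of 14 other enzymes of drug metabolism known to be induced with glutathione S-transferases, 6 rose in Atp7b-/- and none fell. Of all genes 24.6% were called there, 14.3% upward. With zinc 3 fell against untreated mutants, where 6.54% of all genes were called and 26.0% of those were higher. Against wild type 5 stayed higher with zinc, where 7.62% of all genes were called and 4.89% called higher. Nqo1, a quinone reductase, rose by 1.73 and stood 0.91 above wild type with zinc, the latter call lost under 7 alternatives, among them leaving out wild type array 1, 2 or 3 or zinc-treated array 1, 2 or 4. Ephx1, microsomal epoxide hydrolase, rose by 1.01 and fell by 0.43 with zinc. Ugdh, which supplies UDP-glucuronate, rose by 1.03 and fell by 0.40, the latter lost without zinc-treated array 3 or both pancreatic arrays, and Aldh1a7, an aldehyde dehydrogenase, rose by 0.95 and fell by 0.39. The median change of these 14 genes in Atp7b-/- was 0.54, against -0.05 over all genes. The pathway lists were chosen with earlier results of these data known, so their counts are a description.

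**Figure D5:**
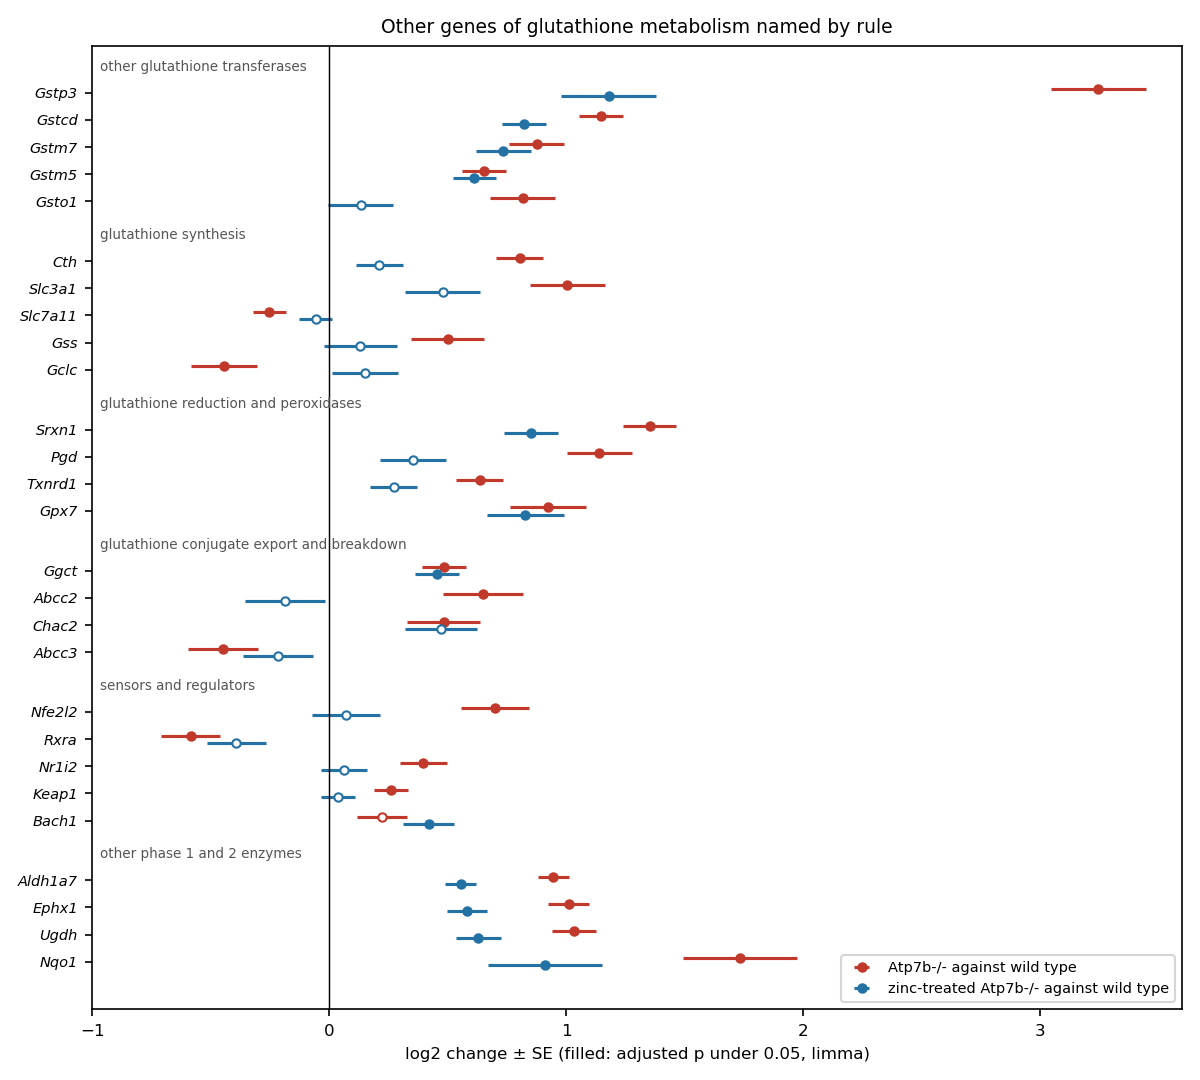
Log2 change ± SE against wild type of the genes named by rule from each pathway list, for untreated and zinc-treated Atp7b-/- liver, with filled points for an adjusted p under 0.05 in limma. Gstp3 has the largest change at 3.25, and Gclc, Slc7a11, Abcc3 and Rxra lie below 0 in untreated Atp7b-/- liver.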

How the data were processed

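The authors deposited a table of log2 intensities, 1 column per array, and these values were used without rescaling; for the authors' background correction and normalization, the method was not given in the sources used here. Genes were taken from the platform annotation paired with the probe sets: 34945 probe sets have 1 symbol, 932 several and 9160 none, and 64 control probe sets were left out. Where a gene had several probe sets (9010 genes), the brightest by mean over 12 arrays was used. A common model of 3 group means was fitted with limma 3.58.1 (lmFit, eBayes; R 4.3.3) over 18193 genes, and p-values were adjusted by Benjamini-Hochberg within each comparison. Intervals are at 95%. The code was tested on simulated data with known changes.

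The members and gene lists were chosen with earlier results of these data known. Named genes are all 10 members, up to 4 called genes with the smallest adjusted p per list and comparison, a few genes named whatever their value, and the 3 genes nearest to a leading member; exceptions are stated where they occur. Alternatives changed the scaling, the choice of probe set, the variance model, the arrays included and the block.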

Additional observations from a re-analysis of the deposited data

Results flagged for a closer look

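Gsta4 on zinc-treated Atp7b-/- array 4 read 10.88, while the other 3 arrays of that group lay between 10.35 and 10.39. The gap to the nearest array was 0.933 of the group's whole range, above Dixon's 95% critical value for 4 samples. Of 30 groups tested this was the only one, and chance marks about 1 in 20.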

How the results depend on the processing

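Of 720 values of the 10 genes under 24 alternatives, 683 kept their direction and side of the threshold, 22 lost the call, 8 gained it and 7 changed sign. Several alternatives leave a log2 change as it was, among them the replicate block and leaving out arrays of the group not compared. There only the call could change, so the count of kept directions is partly fixed in advance. Gsta2, Gstm3 and Gstm4 kept their calls against wild type in all 24, in both mutant groups. Member values that changed sign were not called: Gsta3 in Atp7b-/- gave 0.019 as the mean of its probe sets, 0.14 with the probe set of largest variance and, without 1 replicate each, from -0.16 to 0.011 (without Atp7b-/- replicate 1). With zinc against untreated mutants, Gstm1 gave -0.0052 without _x_at and _s_at probe sets, Gstm2 from -0.022 (without Atp7b-/- replicate 4) to 0.25 and Gstm6 from -0.021 (without zinc-treated replicate 4) to 0.23 over the fits without 1 replicate. Gstm2 with zinc against wild type gave 0.023 without both pancreatic arrays. Among other genes, Ggct in Atp7b-/- gave -0.0071 and Txnrd1 with zinc 0.098 as means of all probe sets. The cause was not tested.

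Leaving out each array in turn, the genes called ranged from 3292 to 4495 in Atp7b-/- against wild type, from 689 (without Atp7b-/- replicate 4) to 1158 with zinc against untreated, and from 932 to 1639 with zinc against wild type. Called members ranged from 3 to 5, 0 to 0 and 3 to 4. With array weights 1861 genes were called with zinc against untreated, and without both pancreatic arrays 614, and 699 against wild type. Of called genes with zinc against untreated, 26.0% were higher, or 40.2% after quantile normalization. Adjusted over all probe sets rather than genes, Gstk1 (adjusted p = 0.0532) and Gsta4 with zinc (0.0547) were not called by limma. Correlations of same-numbered arrays ran from -0.13 to 0.237; they exceeded 0.1 for 3 of 4 numbers between wild type and zinc-treated arrays, not for all, so the numbers were not taken to pair the samples. With the replicate block 5, 0 and 3 members were called, against 4449, 1171 and 1353 of all 18193 genes, with Gsta4 lost (limma adjusted p = 0.0531). The number of arrays limits the precision.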
